A study of Mus musculus with 18 samples.

Results

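The genes described are 10 inducible targets of the transcription factor NF-κB in mouse thymocytes: Gadd45b, Icam1, Map3k8, Cd82, Cd83, Traf1, Ltb, Tnf, Lta and Nfkbiz. All 10 of 10 were found by their Entrez Gene ID among the 27179 genes of the count tables, and all 10 passed the filter on low counts, which 12798 genes passed. The list was chosen by the measured RNA levels of these samples, with lower levels in mutant than in WT cells already known for some of its genes. Differences of these genes from WT are therefore given with their standard error and without a p-value, and support nothing about the list. The other gene lists used below were also chosen with earlier results of these data known. Adjusted p-values of their genes describe single genes only.

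NF-κB dimers rest in the cytoplasm, bound by IκB proteins. Signals from the T-cell receptor (TCR) or from receptors of the TNF family activate the IκB kinase, IκB is degraded, and the dimers enter the nucleus and bind κB sites in the DNA of their target genes. LUBAC, the linear ubiquitin chain assembly complex, is made of HOIP, HOIL-1 (gene Rbck1) and SHARPIN and attaches linear ubiquitin chains to proteins of this pathway, such as the kinase subunit NEMO. In the thymus, NF-κB activity accompanies the maturation of positively selected thymocytes and the formation of regulatory T (Treg) cells. Some targets encode its own inhibitors, so the level of target RNA is a common readout of the pathway.

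RNA of 18 samples was sequenced, an MHC I low and an MHC I high sample of CD69+ thymocytes per mouse, from 3 WT, 3 HoilΔCd4 and 3 Sharpin cpdm mice (the genotypes Wildtype, Hoil and Sharpin of the labels). CD69 marks thymocytes that have received a TCR signal, and MHC I on the surface rises as they mature. HoilΔCd4 mice carry floxed Rbck1 alleles that a Cd4-Cre transgene deletes in the T lineage from the double-positive (DP) stage on, whereas the cpdm mutation removes SHARPIN from every cell type. The cpdm strain came from C57BL/Ka mice and had been crossed to C57BL/6 for only a few generations, so genotype and strain cannot be told apart in it. Cells that stained for propidium iodide, CD25, CD44 or markers of other lineages had been gated out. The ages of the mice are not given in the sources used here.

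Between 10577966 and 16266128 reads were counted per sample. Rbck1 fell from 217–229 CPM (counts relative to library size, TMM-scaled) in WT MHC I low to 0.271–0.779 CPM in HoilΔCd4 MHC I low cells, and from 264–268 to 3.72–8.94 CPM in the MHC I high cells. Sharpin RNA was 66.4–77.9 CPM in Sharpin cpdm and 85.9–97.3 CPM in WT samples. Pax5, a defining marker of B cells, and Foxn1 and Krt5, of thymic epithelial cells, had 0 or 1 count in every sample. Other markers on the same lists were detected in every sample. Among them were Cd79b (27 to 69 counts) and Cd79a (8 to 34) for B cells. For thymic epithelial cells they were Epcam (65 to 153) and Ccl25 (38 to 91). The summed level was 3.71–6.76 CPM for 8 B-cell markers, 30.5–40.3 CPM for 15 myeloid and dendritic markers and 10.5–17.6 CPM for 9 thymic epithelial markers. The 3 WT mice had the RNA pattern of females, and each mutant group held 1 female and 2 males.

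The DNA just upstream of a target gene often carries κB sites, so the 250 bases before the transcription start are printed for Gadd45b and Icam1, which were below WT in every mutant sample, and for the cytokine genes Ltb and Tnf, which lie side by side. The sequences are the coding strand from RefSeq, build GRCm38.p6 (mm10), 5′ to 3′, at chr10:80929841-80930090 (+), chr9:21015690-21015939 (+), chr17:35194257-35194506 (+) and chr17:35202008-35202257 (-). Capitals mark matches, on either strand, to the κB consensus of 10 bases, to a relaxed form of it with more freedom at bases 3 and 4, or to GGAANNTCC.
Gadd45b: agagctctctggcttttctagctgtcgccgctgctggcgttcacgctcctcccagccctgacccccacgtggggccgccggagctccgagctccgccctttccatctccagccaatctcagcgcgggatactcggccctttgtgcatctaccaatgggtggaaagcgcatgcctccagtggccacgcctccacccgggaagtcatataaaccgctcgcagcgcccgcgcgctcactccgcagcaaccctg
Icam1: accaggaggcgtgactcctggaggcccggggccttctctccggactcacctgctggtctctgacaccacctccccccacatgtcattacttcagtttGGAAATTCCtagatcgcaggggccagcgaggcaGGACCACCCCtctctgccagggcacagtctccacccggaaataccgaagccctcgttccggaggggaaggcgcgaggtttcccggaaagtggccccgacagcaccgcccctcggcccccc
Ltb: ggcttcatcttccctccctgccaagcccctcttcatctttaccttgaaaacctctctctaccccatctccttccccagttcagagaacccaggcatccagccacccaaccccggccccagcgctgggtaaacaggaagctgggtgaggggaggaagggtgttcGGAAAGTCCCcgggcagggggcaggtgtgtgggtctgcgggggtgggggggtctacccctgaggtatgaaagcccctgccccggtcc
Tnf: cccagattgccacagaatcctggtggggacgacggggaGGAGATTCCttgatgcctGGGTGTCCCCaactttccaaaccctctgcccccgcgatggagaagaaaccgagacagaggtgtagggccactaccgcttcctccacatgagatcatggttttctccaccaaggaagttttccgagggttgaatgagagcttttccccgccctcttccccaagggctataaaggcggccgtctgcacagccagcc
The search covered 250 bases before to 50 after the start and all 10 windows listed for 7 of the 10 genes. Cd83, Nfkbiz and Map3k8 had no entry. Ltb held the consensus from base -87 to -78, on the strand opposite to the gene, and was the only 1 of the 7 genes with it, beside 4.51% of all 32851 mouse windows. The relaxed form was matched in Ltb, in Icam1 from -120 to -111 and in Tnf from -194 to -185, against 14.6% of all windows. GGAANNTCC, a form searched after these sequences had been read, was matched in the same 3 genes, in Icam1 from -153 to -145, in Tnf from -212 to -204 and in Ltb within the consensus site, against 4.26% of all windows. None of the forms was matched in the Gadd45b window. The shares over all are of windows and not of genes. For Icam1 and a Cd82 window, the bases after the RefSeq start were not found in the GENCODE transcripts of the gene. Positions in these windows therefore count from the RefSeq start only. A match shows letters in a window and no binding was measured.

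Levels of different genes were compared per length, as RPKM (CPM divided by gene length in kilobases). Averaged over the 18 samples, Ltb was highest at 234 RPKM, followed by Cd82 (79.4), Traf1 (30.9), Nfkbiz (29.5), Icam1 (19.4), Lta (18.5), Gadd45b (16.6), Tnf (8.74), Map3k8 (3.46) and Cd83 (0.584). The median of all tested genes was 12.3 RPKM, so 7 of the 10 genes lay above it and Ltb stood at percentile 98.9. The order changed between the fractions. In WT MHC I low cells Gadd45b stood at place 3 with 37.9 ± 7.18 RPKM (SD, n = 3), not separated from Nfkbiz with 33.9 ± 0.821 RPKM, and in WT MHC I high cells it stood at place 7 with 13.9 ± 1.38 RPKM. Traf1 took place 3 in the WT MHC I high fraction with 50.5 ± 2.48 RPKM, while Icam1 (24.9 ± 0.691 RPKM) and Lta (22.9 ± 2.15 RPKM) there differed by less than the SD of Lta. Tnf, Map3k8 and Cd83 were the 3 lowest genes in both WT fractions.

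**Figure D1:**
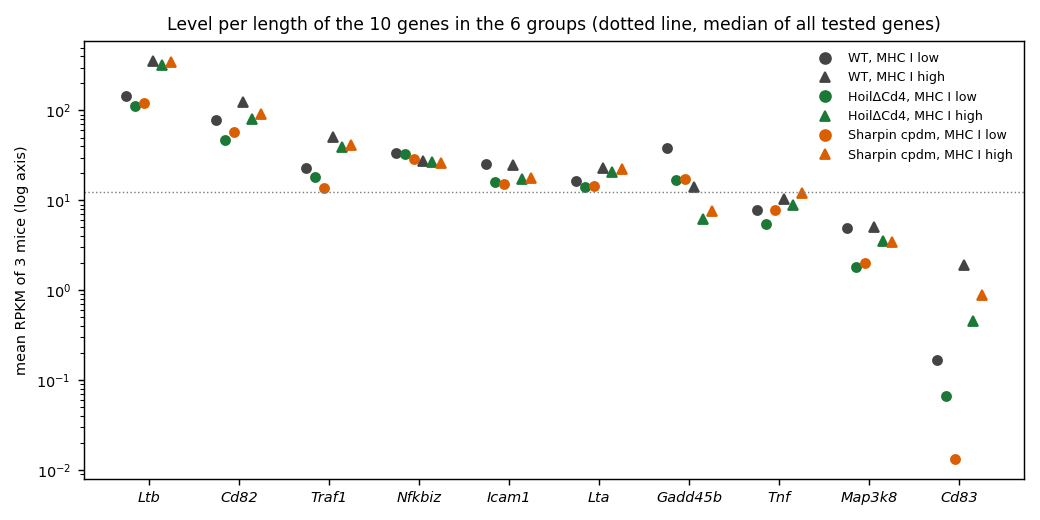
Mean RPKM of 3 mice on a log axis for the 10 genes in the 6 groups of genotype (colour) and MHC I fraction (circle, low; triangle, high). Ltb is highest and Cd83 lowest in every group, and the dotted line marks the median of all tested genes, 12.3 RPKM.

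Gadd45b (chr10:80930091-80932204, +) encodes a stress-induced protein that binds the kinases MAP3K4 and MKK7 and tunes p38 and JNK signalling. In the MHC I low fraction it stood at 44.2, 41.5 and 58.4 CPM in WT mice 1, 2 and 3, at 21.5, 19.2 and 22.9 CPM in HoilΔCd4 mice and at 24.2, 19.3 and 22 CPM in Sharpin cpdm mice. Its MHC I high levels were 16.5, 16.8 and 19.7 CPM in WT, 8.96, 5.68 and 8.74 CPM in HoilΔCd4 and 9.47, 9.15 and 10.56 CPM in Sharpin cpdm cells. Every mutant sample lay below every WT sample of its fraction, and the 2 mutants overlapped in the MHC I low fraction only. The log2 fold change from WT was -1.17 ± 0.15 (SE) in HoilΔCd4 and -1.16 ± 0.14 in Sharpin cpdm cells of the low fraction, and -1.28 ± 0.14 and -0.92 ± 0.13 in the MHC I high cells. Its relatives Gadd45a and Gadd45g passed the test against WT in neither mutant nor fraction, with log2 fold changes between -0.48 (Gadd45g, HoilΔCd4 MHC I high) and 0.31 (Gadd45g, Sharpin cpdm MHC I low). Its partners Map3k4 and Map2k7 also passed in none of the 4 comparisons.

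Map3k8 encodes TPL2, a kinase that p105, the product of Nfkb1, holds inactive, and that turns on the ERK pathway once freed. Its levels were 11.7, 11.96 and 13.1 CPM in WT MHC I low samples, 5.52, 3.37 and 4.75 CPM in HoilΔCd4 and 5.34, 5.08 and 4.77 CPM in Sharpin cpdm. MHC I high samples held 14.7, 10.9 and 12.2 CPM in WT, 8.96, 8.18 and 9.70 CPM in HoilΔCd4 and 7.75, 8.52 and 9.63 CPM in Sharpin cpdm. The mutants were below WT in both fractions without overlap, with a wider gap in the less mature cells. The log2 fold change was -1.41 ± 0.16 in HoilΔCd4 and -1.25 ± 0.15 in Sharpin cpdm cells of the low fraction, but -0.48 ± 0.15 and -0.53 ± 0.14 in MHC I high cells. The counts were low, 39 to 187 per sample. Of its partners, Nfkb1 was lower in HoilΔCd4 MHC I low (log2 fold change -0.30, limma adjusted p = 0.0136) and in Sharpin cpdm cells of both fractions (-0.35 and -0.17, limma adjusted p = 0.000101 and 0.0453). Map2k1, the kinase that TPL2 acts on, was higher in Sharpin cpdm MHC I low cells (0.29, limma adjusted p = 0.00417), and Tnip2, which binds TPL2 and p105, was higher in Sharpin cpdm MHC I high cells (0.24, limma adjusted p = 0.0284).

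Traf1 (chr2:34941750-34961812, -) encodes an adaptor that joins TRAF2 and the cIAP ubiquitin ligases below receptors of the TNF family. WT MHC I low samples held 54.2, 54.4 and 52.2 CPM, against 39.4, 50.5 and 36.2 CPM in HoilΔCd4 and 38.0, 31.2 and 26.3 CPM in Sharpin cpdm. In MHC I high samples there were 119, 122 and 111 CPM in WT, 83.1, 100 and 91.6 CPM in HoilΔCd4 and 97.9, 98.6 and 88.5 CPM in Sharpin cpdm. All mutant samples were below WT, HoilΔCd4 mouse 2 in the MHC I low fraction by the least. The log2 fold changes were -0.38 ± 0.10 and -0.74 ± 0.09 in HoilΔCd4 and Sharpin cpdm MHC I low cells and -0.31 ± 0.09 and -0.26 ± 0.09 in MHC I high cells. The cIAP2 gene Birc3, also an NF-κB target, was lower in all 4 comparisons (log2 fold change -0.26 to -0.62, largest limma adjusted p = 0.006). Traf2 passed as lower in Sharpin cpdm MHC I high cells (log2 fold change -0.19, limma adjusted p = 0.0209) and had -0.12 to 0.02 in the other 3 comparisons.

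Nfkbiz (chr16:55811375-55838954) encodes IκBζ, a nuclear IκB protein that helps NF-κB at delayed targets. Its level varied little between groups. Group means lay between 102 and 131 CPM, and MHC I low levels were 130, 129 and 135 CPM in WT, 133, 126 and 127 CPM in HoilΔCd4 and 124, 106 and 109 CPM in Sharpin cpdm. MHC I high levels were 107, 99.9 and 111 CPM in WT, 108, 94.3 and 112 CPM in HoilΔCd4 and 98.1, 104 and 103 CPM in Sharpin cpdm. Only Sharpin cpdm MHC I low samples lay apart from WT, with a log2 fold change of -0.23 ± 0.07. In HoilΔCd4 cells the 95% interval of the difference was -0.18 to 0.11 in the MHC I low and -0.18 to 0.08 in the MHC I high fraction. Nfkbia, the gene of the classical inhibitor IκBα, was lower in all 4 comparisons, by -0.59 and -0.37 in HoilΔCd4 and -0.73 and -0.40 in Sharpin cpdm cells (MHC I low and high, largest limma adjusted p = 0.000127).

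Icam1 (chr9:21015940-21028814, +), the ligand of the integrin LFA-1, was level between the WT fractions and lower in every mutant sample. It stood at 66.0, 62.0 and 63.6 CPM in WT MHC I low cells, at 43.1, 41.2 and 37.5 CPM in HoilΔCd4 and at 39.3, 36.4 and 39.8 CPM in Sharpin cpdm. The MHC I high samples held 65.2, 62.2 and 62.2 CPM in WT, 48.3, 45.5 and 38.5 CPM in HoilΔCd4 and 41.7, 47.6 and 46.1 CPM in Sharpin cpdm. WT values spanned only 62.0 to 66.0 CPM over both fractions, and the highest mutant sample reached 48.3 CPM. The log2 fold change was -0.66 ± 0.08 and -0.74 ± 0.08 in HoilΔCd4 and Sharpin cpdm MHC I low cells and -0.53 ± 0.07 and -0.46 ± 0.07 in MHC I high cells. Neither chain of LFA-1 was called lower. Itgal was higher in Sharpin cpdm cells of both fractions (log2 fold change 0.18 and 0.16, limma adjusted p = 0.0402 and 0.0462), and Itgb2 passed in none of the 4 comparisons (0.03 to 0.17). Icam2 passed in none either (-0.03 to 0.12). The antisense gene Gm47079 overlaps Icam1 on the other strand, and whether counting used strand is not given in the sources used here.

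Cd82 (chr2:93419102-93462950, -) encodes a tetraspanin, a membrane protein that organises receptors on the cell surface. Its levels in MHC I low samples were 147, 135 and 149 CPM in WT, 87.1, 84.9 and 88.5 CPM in HoilΔCd4 and 105, 102 and 110 CPM in Sharpin cpdm. In MHC I high samples they were 212, 251 and 223 CPM in WT, 170, 156 and 123 CPM in HoilΔCd4 and 178, 170 and 161 CPM in Sharpin cpdm. No mutant sample reached its WT range, and in the MHC I low fraction the 2 mutants did not overlap either, HoilΔCd4 being lower. The log2 fold changes from WT were -0.73 ± 0.09 and -0.46 ± 0.08 in HoilΔCd4 and Sharpin cpdm MHC I low cells and -0.61 ± 0.08 and -0.40 ± 0.07 in MHC I high cells. Among other tetraspanins, Cd81 was higher in Sharpin cpdm cells of both fractions (0.61 and 0.60, limma adjusted p = 9.08e-05 and 3.3e-05), whereas Cd9, Cd53 and Cd151 passed in none of the 4 comparisons. A non-coding gene, Gm10804, overlaps Cd82 on the opposite strand.

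Cd83 (chr13:43785112-43803133) encodes a surface protein of activated lymphocytes and dendritic cells that slows the removal of MHC II. It was close to absent from MHC I low cells, with 6, 6 and 4 counts in WT, 2, 1 and 3 in HoilΔCd4 and 0, 1 and 0 in Sharpin cpdm samples. In MHC I high cells WT mice had 3.07, 4.39 and 4.83 CPM, HoilΔCd4 mice 0.987, 0.909 and 1.06 CPM and Sharpin cpdm mice 1.15, 3.18 and 1.36 CPM. HoilΔCd4 was below WT in every mouse, and Sharpin cpdm mouse 2 lay inside the WT range. The log2 fold change in MHC I high cells was -2.05 ± 0.43 in HoilΔCd4 and -1.11 ± 0.39 in Sharpin cpdm, the latter -1.72 without Sharpin cpdm mouse 2 (called without it, and not with it in the main fit). With all mice it was called by edgeR and with a prior count of 3. In MHC I low cells the ratio of summed counts, WT over mutant, was 2.43 for HoilΔCd4 (exact 95% interval 0.902 to 7.57) and 13.9 for Sharpin cpdm (2.17 to 585), and these intervals cover counting error only. Of the 15 myeloid and dendritic markers, Cst3 (211 to 409 counts), Itgam (23 to 127) and Cd68 (41 to 101) were detected in every sample, while Batf3 (0 to 2), Ccl17 (0 to 4) and Itgax (0 to 5) were at or near 0, and the part of such cells in the Cd83 level was not tested.

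**Figure D2:**
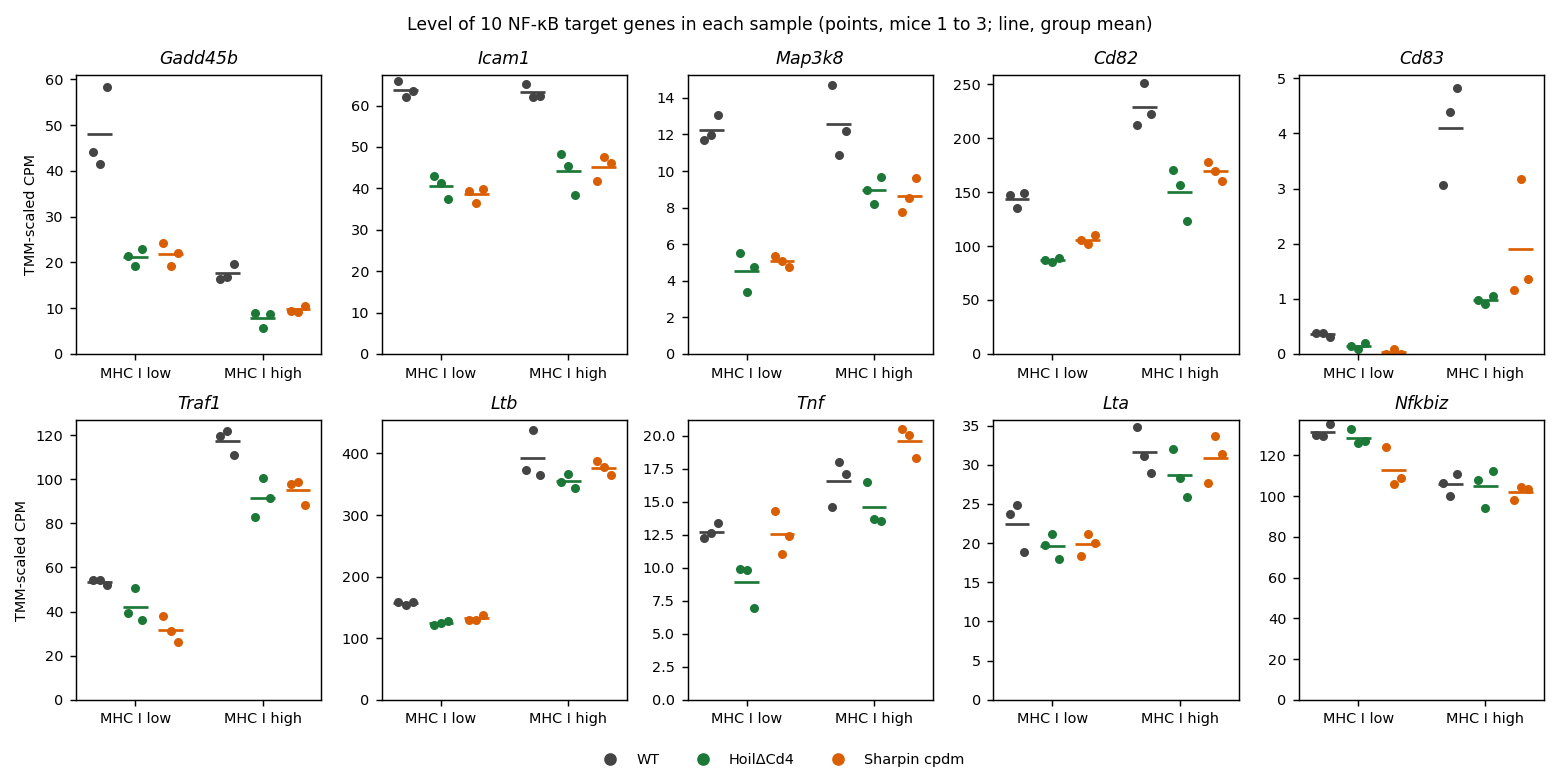
TMM-scaled CPM of the 10 genes, 1 panel per gene with its own axis from 0, in each of the 18 samples (points in the order of mice 1 to 3; horizontal line, group mean) by MHC I fraction. For Gadd45b, Icam1, Map3k8, Cd82 and Traf1 all mutant points lie below the WT points of their fraction.

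Ltb, Tnf and Lta encode lymphotoxin β, TNF and lymphotoxin α, which make up the ligands of the lymphotoxin β receptor and of both TNF receptors. They lie in a row on chromosome 17 (Ltb chr17:35194507-35196305, +; Tnf chr17:35199367-35202007, -; Lta chr17:35203165-35205578, -), 3061 and 1157 bases apart. Their levels differed widely. Ltb was the most abundant, with 159, 154 and 159 CPM in WT MHC I low samples, 121, 125 and 127 CPM in HoilΔCd4 and 129, 130 and 138 CPM in Sharpin cpdm. The MHC I high samples held 373, 438 and 366 CPM in WT, 353, 367 and 344 CPM in HoilΔCd4 and 387, 378 and 366 CPM in Sharpin cpdm. Mutants were apart from WT in the MHC I low fraction and overlapped it in the MHC I high fraction. The log2 fold changes were -0.33 ± 0.06 and -0.26 ± 0.06 in HoilΔCd4 and Sharpin cpdm MHC I low cells, and the 95% interval in MHC I high cells was -0.20 to 0.02 for HoilΔCd4 and -0.11 to 0.10 for Sharpin cpdm.

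Tnf separated the mutants from each other. WT MHC I low samples held 12.2, 12.6 and 13.4 CPM, HoilΔCd4 9.88, 9.86 and 6.92 CPM and Sharpin cpdm 14.3, 11.02 and 12.4 CPM. For MHC I high cells the levels were 14.6, 18.01 and 17.1 CPM in WT, 16.5, 13.7 and 13.5 CPM in HoilΔCd4 and 20.5, 20.02 and 18.3 CPM in Sharpin cpdm. HoilΔCd4 MHC I low samples were below WT and below Sharpin cpdm, and Sharpin cpdm MHC I high samples were above all WT samples. The log2 fold change from WT was -0.55 ± 0.14 and -0.05 ± 0.13 in HoilΔCd4 and Sharpin cpdm MHC I low cells and -0.21 ± 0.12 and 0.25 ± 0.11 in MHC I high cells. The counts were low, 102 to 320 per sample. The TNF receptor gene Tnfrsf1a passed in none of the 4 comparisons (log2 fold change -0.05 to 0.15), and Tnfrsf1b was lower in Sharpin cpdm MHC I high cells (-0.23, limma adjusted p = 0.0377).

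Lta passed the test against WT in no group. MHC I low levels were 23.7, 24.9 and 18.9 CPM in WT, 19.8, 21.1 and 17.98 CPM in HoilΔCd4 and 18.3, 21.2 and 19.99 CPM in Sharpin cpdm. MHC I high levels were 34.8, 31.1 and 29.0 CPM in WT, 32.0, 28.3 and 25.9 CPM in HoilΔCd4 and 27.7, 33.7 and 31.4 CPM in Sharpin cpdm. The groups overlapped throughout. The 95% intervals of the log2 fold change from WT were -0.43 to 0.04 and -0.33 to 0.08 for HoilΔCd4 and -0.37 to 0.06 and -0.16 to 0.22 for Sharpin cpdm, MHC I low and high. Ltbr, the receptor of lymphotoxin β, was at 0.26–3.01 CPM and passed in none of the comparisons with WT. Of the genes that flank the row, Lst1 and Nfkbil1 were tested and passed in none of the 4 comparisons.

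Counted over the list, 6 of 10 genes were lower in HoilΔCd4 MHC I low cells at an adjusted p under 0.05 (limma), where 0.563% of all tested genes were. The 6 were Gadd45b, Icam1, Map3k8, Cd82, Ltb and Tnf. HoilΔCd4 MHC I high cells also had 6 of 10 lower (Gadd45b, Icam1, Map3k8, Cd82, Cd83 and Traf1) against 2.81% of all genes. In Sharpin cpdm cells 8 of 10 were lower in the MHC I low fraction, all but Tnf and Lta, against 6.92%, and 4 of 10 in the MHC I high fraction (Gadd45b, Icam1, Map3k8 and Cd82) against 4.47%. None of the 10 was called higher than WT in any of these comparisons. The share of all genes called higher than WT is not given here. Since the genes were picked with such differences known, nothing is read from these counts, and the comparisons share the same WT samples. The median log2 fold change of the 10 genes was -0.61 and -0.40 in HoilΔCd4 and -0.60 and -0.33 in Sharpin cpdm cells (MHC I low and high), beside medians of all genes between -0.00 and 0.01. In bulk RNA, fewer cells that express a gene and less RNA per cell cannot be told apart.

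Some of these calls changed with the settings, which describes the calls and supports nothing about the genes. Map3k8 in HoilΔCd4 MHC I high cells was not called with edgeR, DESeq2, library size scaling, no filter on low counts, no sample weights, the mouse number as a fixed block or Xist as a covariate, nor was it in the high fraction of Sharpin cpdm without sample weights. Traf1 in HoilΔCd4 MHC I high cells was not called with edgeR, no filter, no weights or no block, and Tnf in HoilΔCd4 MHC I low cells with edgeR, no filter, no block or the fixed block. Single mice mattered as well. Tnf in HoilΔCd4 MHC I low cells lost its call without any 1 of WT mice 1, 2 and 3, HoilΔCd4 mice 2 and 3 and Sharpin cpdm mouse 3 (log2 fold change -0.62 to -0.36). Map3k8 in HoilΔCd4 MHC I high cells lost it without WT mouse 1 or 3, HoilΔCd4 mouse 2 or 3 or Sharpin cpdm mouse 2 (-0.55 to -0.36), and in Sharpin cpdm MHC I high cells without WT mouse 1 or 3 or Sharpin cpdm mouse 1 or 2 (-0.56 to -0.42). Traf1 in HoilΔCd4 MHC I high cells lost it without any WT mouse, HoilΔCd4 mouse 1 or 3 or Sharpin cpdm mouse 2 (-0.39 to -0.26). For Cd83 in HoilΔCd4 MHC I high cells WT mouse 3 was the decisive one (-1.83 without it), and for Nfkbiz in the low fraction of Sharpin cpdm WT mice 1 and 3 and Sharpin cpdm mice 2 and 3 were (-0.24 to -0.18). Without WT mouse 3, calls over all genes in HoilΔCd4 MHC I high cells fell as well, to 134 of 12751 genes. Traf1 gained a call in HoilΔCd4 MHC I low cells without HoilΔCd4 mouse 2 or Sharpin cpdm mouse 1 (-0.50 to -0.38) and in Sharpin cpdm MHC I high cells without HoilΔCd4 mouse 2 or 3 or Sharpin cpdm mouse 1 (-0.31 to -0.26). With all mice, it gained a call in both groups with library size scaling or the fixed block. Cd83 in Sharpin cpdm MHC I high cells gained one with edgeR, a prior count of 3 or without Sharpin cpdm mouse 2.

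**Figure D3:**
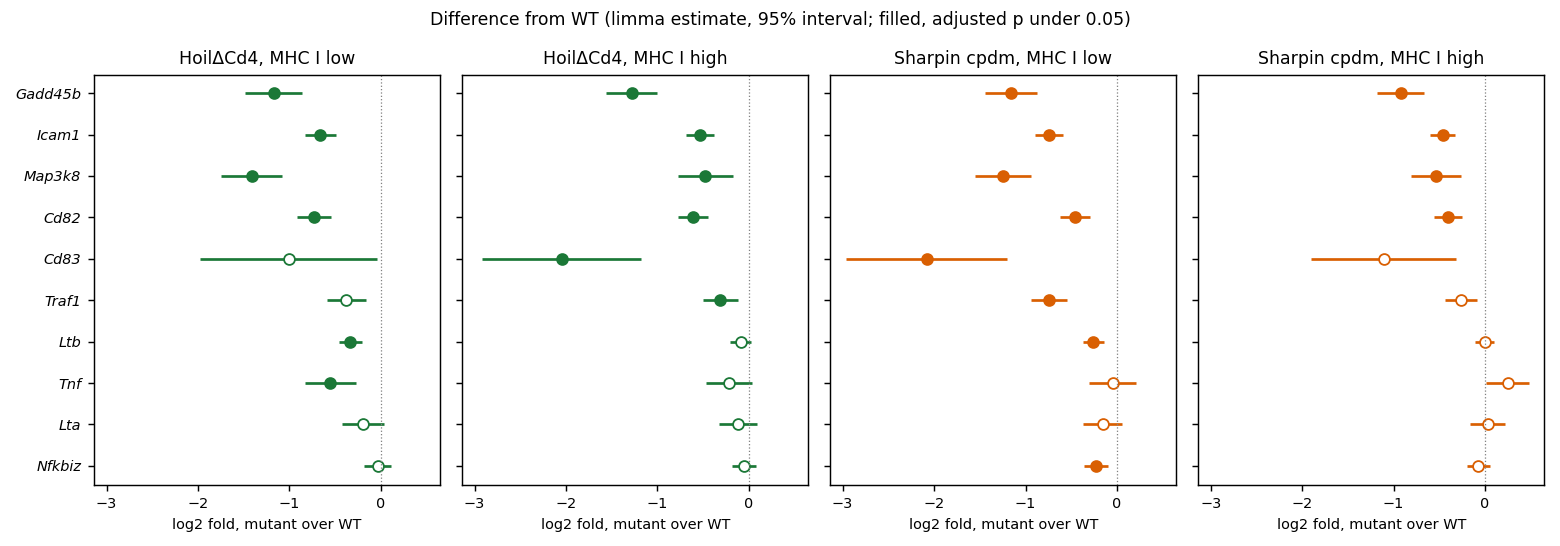
Log2 fold change of the 10 genes, mutant over WT, with 95% intervals from limma in the 4 comparisons; filled points have an adjusted p under 0.05 over all 12798 genes. Gadd45b and Icam1 lie below 0 in all 4 panels, Map3k8 lies nearer 0 in the MHC I high panels than in the MHC I low ones, and Lta crosses 0 in all 4.

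Since WT mice were all female, the single female of each mutant was set against the WT range. Her value was below all WT samples for 10 of 10 genes in HoilΔCd4 MHC I low cells, where 30.8% of all tested genes were, and for 9 in HoilΔCd4 MHC I high cells (30% of all). In Sharpin cpdm it was below for 9 in the low fraction (30.3% of all) and for 5 in the high fraction (26.2% of all), namely Gadd45b, Icam1, Map3k8, Cd82 and Traf1. As the genes were picked for low mutant levels, nothing is read from these counts, and for Cd83 in MHC I low cells they rest on 0 to 6 reads. She was above the WT range for Nfkbiz in HoilΔCd4 MHC I high cells and for Tnf in the high fraction of Sharpin cpdm. With Xist as a covariate, Map3k8 in HoilΔCd4 MHC I high cells and Nfkbiz in the low fraction of Sharpin cpdm no longer passed against WT.

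Compared with each other, the 2 mutants differed in few of these genes. The mutant values compared were known when the genes were chosen, so the adjusted p-values describe single genes and support nothing about the list. In MHC I low cells Traf1 was higher in HoilΔCd4 than in Sharpin cpdm (log2 fold change 0.36 ± 0.11, limma adjusted p = 0.0315) and Tnf was lower (-0.50 ± 0.14, adjusted p = 0.0213), 2 of 10 genes where 9.48% of all genes passed in either direction. In MHC I high cells Tnf was again lower in HoilΔCd4 (-0.46 ± 0.12, limma adjusted p = 0.0222), 1 of 10 genes against 6.73% of all. These shares are near the background. The Traf1 samples of both mutants overlapped (36.2 to 50.5 against 26.3 to 38.0 CPM), and its call was lost without HoilΔCd4 mouse 2 or Sharpin cpdm mouse 2 or 3 (log2 fold change 0.24 to 0.38). Tnf lost its call in the MHC I low fraction without HoilΔCd4 mouse 3 or Sharpin cpdm mouse 1 (-0.43 to -0.32) and in the MHC I high fraction without HoilΔCd4 mouse 2 or 3 or Sharpin cpdm mouse 1 or 2 (-0.44 to -0.39). Cd82 gained a call in MHC I low cells without HoilΔCd4 mouse 3 or WT mouse 2 (-0.28 to -0.27) and in MHC I high cells without HoilΔCd4 mouse 1 (-0.29), and Nfkbiz gained one in MHC I low cells without Sharpin cpdm mouse 1 (0.26). For Gadd45b the 95% interval of HoilΔCd4 over Sharpin cpdm was -0.34 to 0.30 and -0.65 to -0.08 in MHC I low and high cells, and for Icam1 it was -0.09 to 0.26 and -0.22 to 0.08.

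The step to the MHC I high stage was called for 8 of the 10 genes in WT mice. Of these, 6 were higher in MHC I high cells, where 27.5% of all genes were, and 2 were lower, where 26.8% were. Since calls in each direction were this common among all genes, nothing about the list is read from these counts. Cd83 had the largest rise, with a fitted log2 fold change of 3.32 ± 0.36 and a ratio of summed counts of 11.4 (exact 95% interval 6.86 to 20.5, counting error only). It had at most 0.384 CPM in MHC I low samples and passed the filter (0.5 CPM in 3 samples) through MHC I high samples alone. The filter thus favoured a rise, and the rise of Cd83 is a description only. Ltb (1.27 ± 0.05), Traf1 (1.10 ± 0.08), Cd82 (0.64 ± 0.07), Lta (0.47 ± 0.09) and Tnf (0.38 ± 0.10) rose as well, with limma adjusted p from 1.9e-20 for Ltb to 0.00241 for Tnf. Gadd45b fell by 1.39 ± 0.11 on the log2 scale (limma adjusted p = 2.7e-11) and Nfkbiz by 0.29 ± 0.05 (limma adjusted p = 3.53e-05). Icam1 and Map3k8 had 95% intervals of -0.15 to 0.10 and -0.22 to 0.29.

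The same step in HoilΔCd4 mice gave 7 genes higher (23.5% of all genes) and 2 lower (21.7%). In Sharpin cpdm mice it gave 8 higher (27.2%) and 1 lower (27.4%). Mutant levels were known when the genes were chosen, so these calls and their adjusted p-values describe single genes only. Gadd45b fell in each mutant, with log2 fold changes of -1.495 ± 0.14 in HoilΔCd4 and -1.15 ± 0.12 in Sharpin cpdm. Cd83 rose with count ratios of 6.54 (2.73 to 19.0) in HoilΔCd4 and 73.6 (12.9 to 2939) in Sharpin cpdm, the latter resting on 1 count in the MHC I low samples. Here too the filter was passed by Cd83 through MHC I high samples alone, so these ratios are descriptions. Map3k8, level in WT, rose in both mutants, by 0.97 ± 0.15 in HoilΔCd4 and 0.75 ± 0.13 in Sharpin cpdm (limma adjusted p = 3.61e-06 and 1.22e-05). Icam1 rose in Sharpin cpdm (0.26 ± 0.06, limma adjusted p = 0.00115), though not without Sharpin cpdm mouse 2 (0.15). Nfkbiz fell in HoilΔCd4 by 0.31 ± 0.07 (limma adjusted p = 0.000306). In Sharpin cpdm it had -0.13 ± 0.06 (limma adjusted p = 0.0535), which became a call without any 1 of Sharpin cpdm mice 2 and 3, HoilΔCd4 mice 2 and 3 and WT mouse 2 (-0.20 to -0.13). The remaining rises were 1.17, 1.51, 0.75, 0.54 and 0.72 in HoilΔCd4 and 1.58, 1.52, 0.69, 0.65 and 0.68 in Sharpin cpdm for Traf1, Ltb, Cd82, Lta and Tnf.

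**Figure D4:**
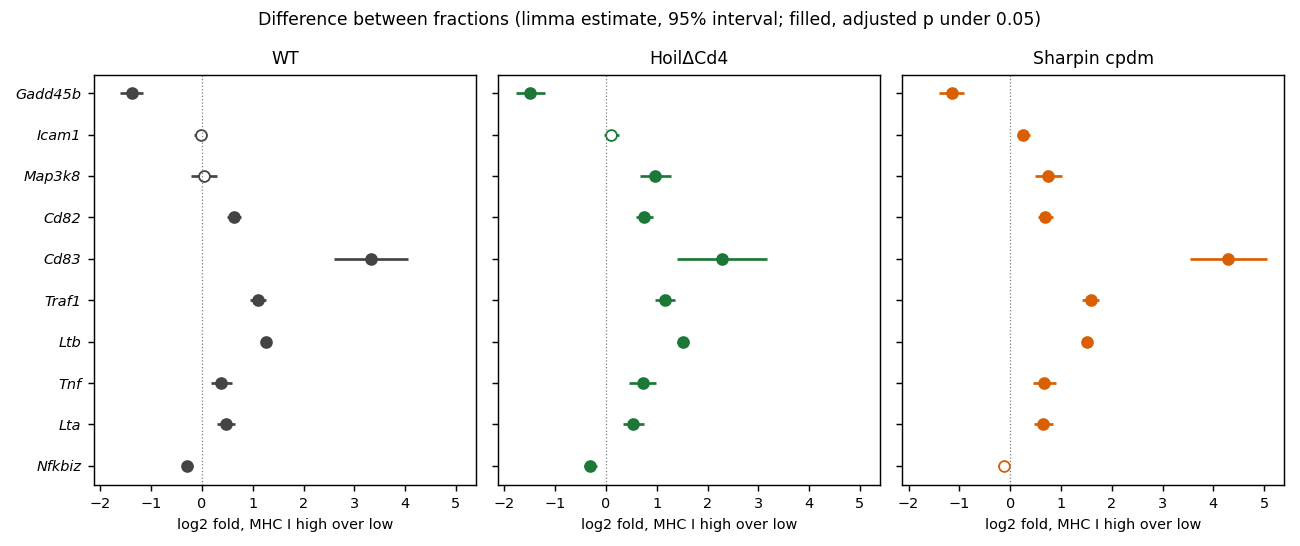
Log2 fold change of the 10 genes, MHC I high over MHC I low, with 95% intervals from limma in each genotype; filled points have an adjusted p under 0.05. Gadd45b lies below 0 and Cd83, Traf1, Ltb, Cd82, Tnf and Lta above 0 in all 3 panels, and Map3k8 lies at 0 in WT and above 0 in both mutants.

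The difference between a mutant's change over the fractions and that of WT was estimated as an interaction in the same model. It is built from the mutant and WT values that were known when the genes were chosen, so it is given as a description, without a p-value. In HoilΔCd4, Map3k8 alone of the 10 passed the threshold that 0.398% of all genes passed, and its rise exceeded that in WT by 0.93 ± 0.20 on the log2 scale. In Sharpin cpdm, where 3.13% of all genes passed, it was Map3k8 (0.71 ± 0.18), Traf1 (0.48 ± 0.11) and Ltb (0.25 ± 0.07). All 4 values mean that the deficit against WT was larger in MHC I low than in MHC I high cells, and nothing is read from their number. Map3k8 lost its call in HoilΔCd4 without WT mouse 2 or 3 or HoilΔCd4 mouse 2 or 3 (0.82 to 0.93), and in Sharpin cpdm without WT mouse 2 or 3 or Sharpin cpdm mouse 2 or 3 (0.60 to 0.73). Traf1 lost it without any WT mouse or Sharpin cpdm mouse 2 or 3 (0.41 to 0.46), and Ltb without WT mouse 1 or 3 or any Sharpin cpdm mouse (0.14 to 0.29). None of these 4 interactions passed with edgeR or DESeq2.

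To see how the genes varied among themselves, the mean of each fraction was taken out and each gene was correlated, over the 18 samples, with the mean of the 10 standardised profiles, to which it contributes itself. Pearson's r was highest for Icam1 (0.963), Gadd45b (0.918), Map3k8 (0.886) and Cd82 (0.880), followed by Ltb (0.819), Cd83 (0.812) and Traf1 (0.788), and lower for Lta (0.576), Nfkbiz (0.461) and Tnf (0.445). Gadd45b and Icam1 were the most alike pair (r = 0.886), and Tnf and Nfkbiz the least (r = -0.102). The points share genotype groups and mice, so these are descriptions. Outside the list, the 5 genes with the most similar profile were Gramd3 (r = 0.946), Nfkbia (0.924), Tnfaip3 (0.916), Relb (0.916) and Cd274 (0.914), encoding a GRAM-domain protein, IκBα, the feedback ubiquitin editor A20, an NF-κB subunit and PD-L1. Nfkbia, for example, was 185–212 CPM in WT, 125–133 CPM in HoilΔCd4 and 113–130 CPM in Sharpin cpdm samples of the low fraction, with no overlap of mutants and WT.

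Other genes of the pathway were counted from lists drawn up alongside, also with earlier results of these data known. Genes are named from them for their smallest p-values in a direction. The counts and p-values describe these genes and support nothing about the lists. No share of all genes called higher than WT is set beside the counts of higher genes. Among 57 tested genes on a list of other NF-κB targets, 15 were lower and 1 higher in HoilΔCd4 MHC I low cells, 14 and 2 in HoilΔCd4 MHC I high, and 23 and 4, then 19 and 2, in the low and high fractions of Sharpin cpdm. Its median log2 fold change was -0.23, -0.13, -0.15 and -0.16, nearer 0 than that of the 10 genes. Il2ra, the IL-2 receptor α chain (CD25, against which the cells had been gated), was lower in all 4 (-1.34, -1.10, -1.37 and -1.11, largest limma adjusted p = 0.000142), and so was Stx11, a membrane fusion protein (-1.19, -1.24, -1.60 and -1.32, largest limma adjusted p = 0.00066). Myb, a regulator of early thymocytes, was higher in HoilΔCd4 MHC I low cells (0.32, limma adjusted p = 0.00605) and lower in Sharpin cpdm MHC I low cells (-0.20, limma adjusted p = 0.0218), and Tnip1, which restrains the pathway, was higher in Sharpin cpdm cells of both fractions (0.33 and 0.35, largest limma adjusted p = 5.38e-05). This list shares most of the subunits and inhibitors described next.

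Of 11 NF-κB subunits and IκB proteins, Nfkbiz among them, 5 were lower in HoilΔCd4 MHC I low, 2 in HoilΔCd4 MHC I high cells, and 9 and 4 in the low and high fractions of Sharpin cpdm. Relb was lower in all 4 (-0.51, -0.36, -0.43 and -0.23, largest limma adjusted p = 0.02), and Nfkb2 in all but HoilΔCd4 MHC I high cells (-0.39, -0.55 and -0.30, largest limma adjusted p = 0.000394). Rela, the p65 subunit, was the only 1 of the 11 called higher, in Sharpin cpdm MHC I low cells (0.22, limma adjusted p = 0.0146). Of 17 upstream signalling genes few passed in any comparison, Rbck1 in HoilΔCd4 and Sharpin in Sharpin cpdm among them. Map3k14, the kinase NIK of the alternative NF-κB pathway, was higher in Sharpin cpdm MHC I low and high cells (0.45 and 0.31, largest limma adjusted p = 0.000299). Of 11 negative feedback genes, 4, 3, 6 and 3 were lower and 0, 0, 1 and 2 higher. Of 15 receptors and binding partners of the 10 genes, 2, 1, 2 and 4 were lower and 0, 0, 2 and 2 higher in the 4 comparisons, in the order above. Of 27 tested family relatives, 2, 2, 6 and 3 were lower and 1, 1, 5 and 3 higher.

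Early TCR response genes were counted beside them. Of 17 such genes, 1, 1, 6 and 4 were lower and 1 was higher in each comparison, in the same order, with medians of -0.04, -0.02, -0.03 and -0.17. Nab2, a corepressor of EGR proteins, was lower in Sharpin cpdm cells of both fractions (-0.48 and -0.46, largest limma adjusted p = 1.97e-06), while Egr3 was higher in both (0.29 and 0.42, limma adjusted p = 0.0449 and 0.00203). Of 16 tested genes that handling stress induces, 0, 0, 3 and 5 were lower and 1, 1, 0 and 0 higher. The heat shock genes Hspa1a and Hspa1b, near-identical copies that can share reads, stood apart by genotype. In the MHC I low fraction Hspa1b was at 35.7–55.6 CPM in WT, 119–227 CPM in HoilΔCd4 and 4.73–20 CPM in Sharpin cpdm samples, and Hspa1a was at 8.39–12.2, 27.6–57.1 and 1.12–5.20 CPM. Hspa1b was called lower in Sharpin cpdm cells of both fractions (-2.34 and -2.26, limma adjusted p = 0.015 and 0.0133) and not called in HoilΔCd4 (1.70 and 1.58, limma adjusted p = 0.284 and 0.101). The part of handling in the levels of the 10 genes was not tested.

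**Figure D5:**
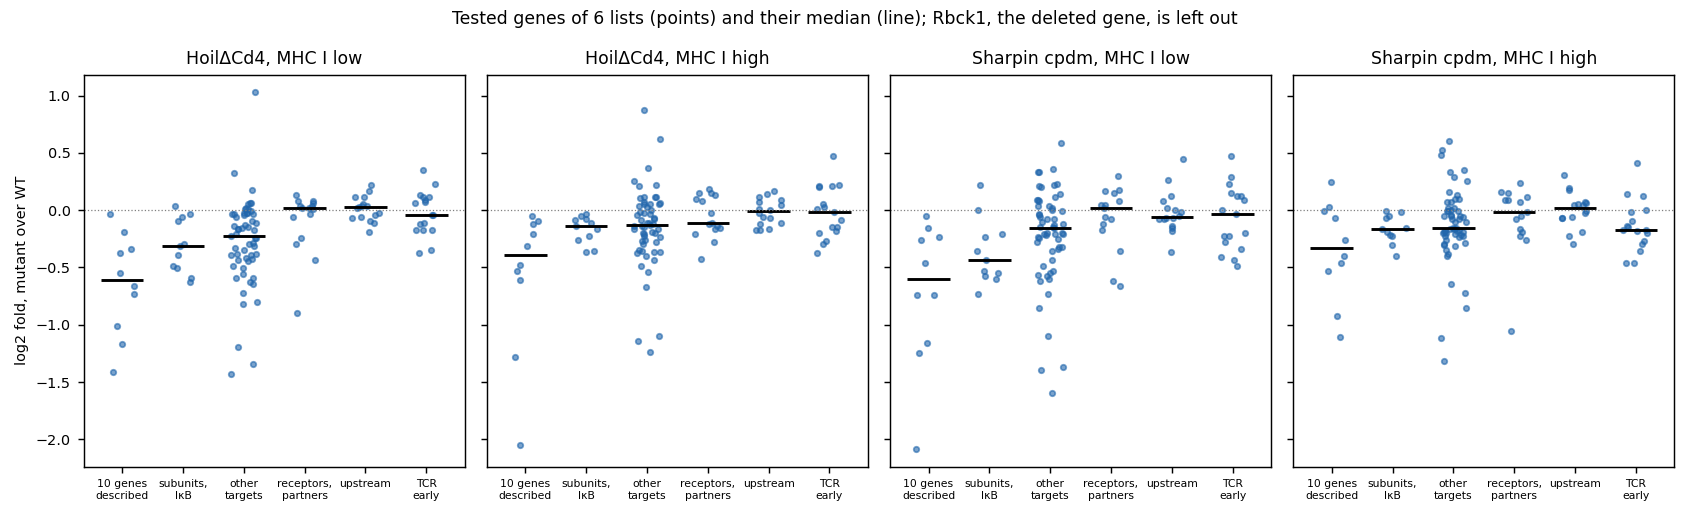
Log2 fold change, mutant over WT, of the tested genes of 6 lists (points) with the list median (line) in the 4 comparisons; Rbck1 is left out, and the list of other targets shares genes with the subunits and the binding partners. The 10 genes have the lowest median in every panel (-0.61, -0.40, -0.60 and -0.33), as genes chosen for low mutant levels would. With Rbck1 kept in, unlike in the drawn lines, the list of upstream genes has medians of 0.02, -0.03, -0.05 and -0.00.

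Treg cells express several of these targets strongly, so their markers were counted. Of 9 Treg markers, all tested, 3 and 5 were called lower in HoilΔCd4 MHC I low and high cells. In the same fractions of Sharpin cpdm 3 and 6 were, and none was called higher in any of the 4 comparisons. Their summed level was 1020–1251 CPM in WT, 1119–1254 CPM in HoilΔCd4 and 686–752 CPM in Sharpin cpdm samples of the low fraction, and 831–958, 668–826 and 631–714 CPM in MHC I high samples. Most of that sum is Ikzf2 (347–1063 CPM), and 4 of the 9 markers (Il2ra, Tnfrsf4, Tnfrsf9 and Tnfrsf18) are on the NF-κB target list as well. Foxp3, the defining factor, was 0.547–1.09, 0.882–1.04 and 0.430–0.541 CPM in WT, HoilΔCd4 and Sharpin cpdm MHC I low samples and 3.58–6.95, 2.65–3.94 and 3.14–3.71 CPM in MHC I high samples, and passed in none of the comparisons with WT. Of 10 mature single-positive markers, 1 and 3 were lower and 0 higher in HoilΔCd4 MHC I low and high cells. In the same fractions of Sharpin cpdm 2 and 1 were higher and 0 lower. Their summed level was 1945–2099, 1806–2008 and 2105–2132 CPM in WT, HoilΔCd4 and Sharpin cpdm MHC I low samples. In MHC I high samples it was 3735–3865, 3298–3397 and 3703–3801 CPM. Of 10 DP markers, 6 and 5 were higher in HoilΔCd4 and Sharpin cpdm MHC I high cells and 2 were lower in Sharpin cpdm cells of the low fraction. Counts of higher markers stand here without the share over all genes, so nothing is read from them. Of 7 tested markers of NK, NKT and γδ T cells, 0, 2, 0 and 0 were lower and 0, 2, 2 and 1 higher, with a summed level of 13.7–69.9 CPM. The part of these cells in the lower levels of the 10 genes was not tested.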

How the data were processed

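RNA of 18 sorted thymocyte samples was sequenced with single-end reads. The authors aligned them to mm10 with the Rsubread package and deposited raw counts per Entrez gene from featureCounts, not normalised. Versions and strand settings are not given in the sources used here. Groups came from the labels, 3 mice per group. The 18 count tables equalled the series-wide table, and 1904 of 27179 gene IDs (0.655% of counts) matched no name.

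Genes of chromosome Y, Xist, predicted and unnamed genes were removed, and 12798 genes with at least 0.5 CPM in 3 samples were tested. Counts were scaled by TMM (edgeR 4.0.16), turned into log2 CPM with a prior count of 1 and fitted in limma 3.58.1 (R 4.3.3, statmod 1.5.0) over all 6 groups, with sample quality weights and the mouse as a random block (correlation 0.224), since 1 mouse gave both fractions. Benjamini-Hochberg adjustment ran over all tested genes, and calls have an adjusted p under 0.05. The 10 members and all gene lists were chosen with earlier results of these data known. Beyond the members, genes named have the smallest p-values in each list and direction, are receptors, partners or relatives of a member, neighbour Ltb, Tnf and Lta, or are the 5 genes of most similar profile. DESeq2 1.42.0, edgeR's quasi-likelihood test, other scaling, filters, blocks and weights, Xist as a covariate and leaving out each mouse were tried. On simulated data for HoilΔCd4 against WT MHC I low (12798 genes, 200 changed), limma recovered 83% of 2-fold and 65% of 1.5-fold changes. Of its calls, 6.33% fell on unchanged genes. The simulated samples were independent, without effects of mouse, fraction or sample quality, so recovery in the real data can differ. Promoter windows came from RefSeq GRCm38.p6.

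Depth was 10577966 to 16266128 counts per sample. Samples of 1 group differed by more than sampling noise (chi-square per degree of freedom 3.95 to 14.1). Intervals on counts cover counting error only.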

Additional observations from a re-analysis of the deposited data

Results flagged for a closer look

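How far a gene changed between the fractions differed between a mutant and WT in 4 tests of the difference itself (limma, log2 scale), which reuse the mutant and WT values known when the genes were chosen and so support nothing about them. Map3k8 rose more than in WT by 0.93 in HoilΔCd4 and by 0.71 in Sharpin cpdm mice. Traf1 and Ltb rose more than in WT by 0.48 and 0.25 in Sharpin cpdm mice. None of the 4 passed with edgeR's quasi-likelihood fit or DESeq2.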

How the results depend on the processing

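Of 110 results (10 genes in 11 comparisons), 57 were called, 43 of them under all 18 alternatives run, and none reversed. The number of the 10 genes called moved by over 1.5 times in 5 comparisons. Without 1 mouse each, it ranged from 3 to 6 for HoilΔCd4 against WT in MHC I high cells (3 without WT mouse 3), from 1 to 3 and from 0 to 2 for HoilΔCd4 against Sharpin cpdm in MHC I low and high cells, and from 0 to 1 and from 0 to 3 for the difference of fraction change in HoilΔCd4 and Sharpin cpdm. Calls over all genes moved too. For HoilΔCd4 against WT in MHC I high cells they ranged from 134 (without WT mouse 3) to 1229. For the remaining comparisons, in the order given, they were 701 to 1193, 325 to 968, 0 to 46 and 109 to 490. The MHC I high sample of WT mouse 3 had the largest sample weight (2.42). HoilΔCd4 against Sharpin cpdm in MHC I low cells fell from 2 to 1 with no filter on low counts and with Xist as a covariate, and in MHC I high cells from 1 to 0 with edgeR and without sample weights. The difference of fraction change fell from 1 (HoilΔCd4) and 3 (Sharpin cpdm) to 0 with edgeR, DESeq2, no filter or no replicate block, and in Sharpin cpdm also without sample weights. The cause was not tested. Over all genes, 51 and 400 passed these tests in HoilΔCd4 and Sharpin cpdm with limma, 1 and 30 with edgeR and 20 and 134 with DESeq2.

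The labels do not say that a mouse number shared by genotypes marks a common day or litter. Deviations of same-numbered samples correlated by -0.0314 to 0.153, and in 24 of 36 comparisons the own number was highest, where chance gives 1 in 3. The 36 take each pair from both sides and use both fractions of a mouse, so they are not independent. They are at most a hint of pairing from the data and not from the design, and pairing was not tested. With the number as a fixed replicate block, 6, 5, 8 and 5 genes were called against WT (6, 6, 8 and 4 without it, in the order HoilΔCd4 low and high, Sharpin cpdm low and high), 2 and 2 between the mutants in MHC I low and high cells, and 0 in both tests of the difference of fraction change.

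Low counts limit Cd83 (0 to 70 per sample), Map3k8 (39 to 187) and Tnf (102 to 320), and 3 mice per group limit all results. The 3 WT mice were female and most mutant mice male. The κB form in 4.51% of windows rose to 14.6% when relaxed.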
